A study of Homo sapiens with 4 samples.

Results

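The GALNT genes encode the polypeptide N-acetylgalactosaminyltransferases, the Golgi enzymes that begin mucin-type O-glycosylation, and 10 of them were followed by symbol: GALNT1, GALNT2, GALNT3, GALNT4, GALNT5, GALNT6, GALNT7, GALNT10, GALNT12 and GALNT14. All 10 were found among the 58051 genes counted in each library, and 9 passed the filter on low counts. The libraries are polyA RNA-seq of A549, an established line of human lung carcinoma cells, in which piggyBac had inserted a doxycycline-inducible A-FOS gene at random sites. A-FOS is a dominant-negative FOS that pairs with JUN proteins and keeps these AP-1 factors off DNA. The plus Dox group had 2 libraries from cells given doxycycline at 1 µg/mL, and the minus Dox group had 2 libraries from untreated cells carrying the same insertion. Whether the cells were 1 clone or a pool, how long doxycycline was given, and whether libraries came from separate cultures are not stated in the labels. The p-values therefore measure the spread between these libraries, which may be technical. No library had doxycycline without the A-FOS gene, so the drug and A-FOS cannot be told apart.

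Each GALNT enzyme moves N-acetylgalactosamine (GalNAc) from UDP-GalNAc onto serine or threonine of a protein passing through the Golgi. Some members act on bare peptides, and others prefer peptides that already carry a GalNAc, so that a cell's mixture of members helps to set how densely mucins and other secreted or surface proteins are glycosylated. Later enzymes extend the first sugar into core structures and cap it with sialic acid.

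Total counts were 32727539 and 31104964 in plus Dox and 36377784 and 40526912 in minus Dox. Reads counted to FOS, which may include those of the inserted gene, were 48.6 and 51.0 CPM in plus Dox, against 1.36 and 1.52 CPM in minus Dox. CPM is the count relative to library size, after TMM scaling, edgeR's correction for library composition. The keratins KRT8 and KRT18 were abundant in every library, and the leukocyte gene CD3E was at 0 in all 4. The 7 epithelial markers summed to 6589 and 6393 CPM in plus Dox and to 12663 and 13011 CPM in minus Dox. Most of that difference lay in KRT7, with 528 and 524 CPM in plus Dox and 4445 and 4643 CPM in minus Dox. Its log2 fold change was -3.11, where KRT8 and KRT18 lay at -0.53 and -0.38. Of the 7 markers 6 fell. Once trends with GC content, length and abundance were removed, 4 fell and 2, KRT8 and KRT18, rose. The 6 leukocyte markers summed to 1.53 and 1.34 CPM in plus Dox and to 3.19 and 2.21 CPM in minus Dox. Most of that sum was CD14, with 40 and 34 reads in plus Dox and 86 and 72 reads in minus Dox, which fell (log2 fold change -1.05). PTPRC went the other way, with 8 and 4 reads in plus Dox and 0 in both minus Dox libraries, and was not tested. The 5 endothelial markers summed to 1.22 and 0.805 CPM in plus Dox and to 1.83 and 2.11 CPM in minus Dox. Of the 3 tested, PECAM1 and CDH5 fell, at -1.68 and -1.86 on the log2 scale. VWF rose by 3.64, with 17 and 22 reads in plus Dox and 3 and 0 reads in minus Dox. All 3 had low counts, and in DESeq2 1 rose and 0 fell. The 6 fibroblast markers summed to 81.5 and 84.5 CPM in plus Dox and to 67.5 and 75.5 CPM in minus Dox. Most of that sum was THY1, which rose (42.6 and 43.9 CPM in plus Dox and 25.3 and 26.8 CPM in minus Dox, log2 fold change 0.73, adjusted p = 1.62e-11), and COL1A1, which fell (34.3 and 35.8 CPM in plus Dox and 36.4 and 43.7 CPM in minus Dox, log2 fold change -0.19, adjusted p = 0.0226) but lay at 0.02 with library size only. COL1A2 and DCN had 1 and 0 reads each in both groups. The part of these markers in the GALNT results was not tested, and in RNA from many cells, fewer expressing cells and less RNA per cell cannot be told apart.

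Of the 9 GALNT genes tested, GALNT5, GALNT10, GALNT2, GALNT1 and GALNT14 fell with doxycycline, and GALNT4, GALNT6, GALNT7 and GALNT12 did not pass the threshold (edgeR quasi-likelihood test, Benjamini-Hochberg adjusted over all 18046 tested genes, threshold 0.05). No member rose: the count of members higher was 0 at the adjusted threshold, 0 at an unadjusted p under 0.05, and 0 in DESeq2, but with library size only, which raises the median of all genes, GALNT6 and GALNT7 passed as higher. The 5 called members make up 55.6% of those tested, against 56.9% of all tested genes, so the share called was near that of all genes. By direction, 28.4% of all tested genes were lower and 28.4% were higher. The median log2 fold change was -0.41 over the 9 members and 0.00 over all tested genes, and the median absolute log2 fold change was 0.41 against 0.36. The CPM ranges of the groups did not overlap in 7 of the 9, beside 77.0% of all tested genes. A fall of at least 2-fold was found for GALNT5 and GALNT10, which is 22.2% of the tested members, beside 12.7% of all tested genes that were called with such a change in either direction. That share rests on 2 genes. GALNT10 lay at -1.02 with library size only, and at -0.88, less than 2-fold, once trends with GC content, length and abundance were removed.

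**Figure D1:**
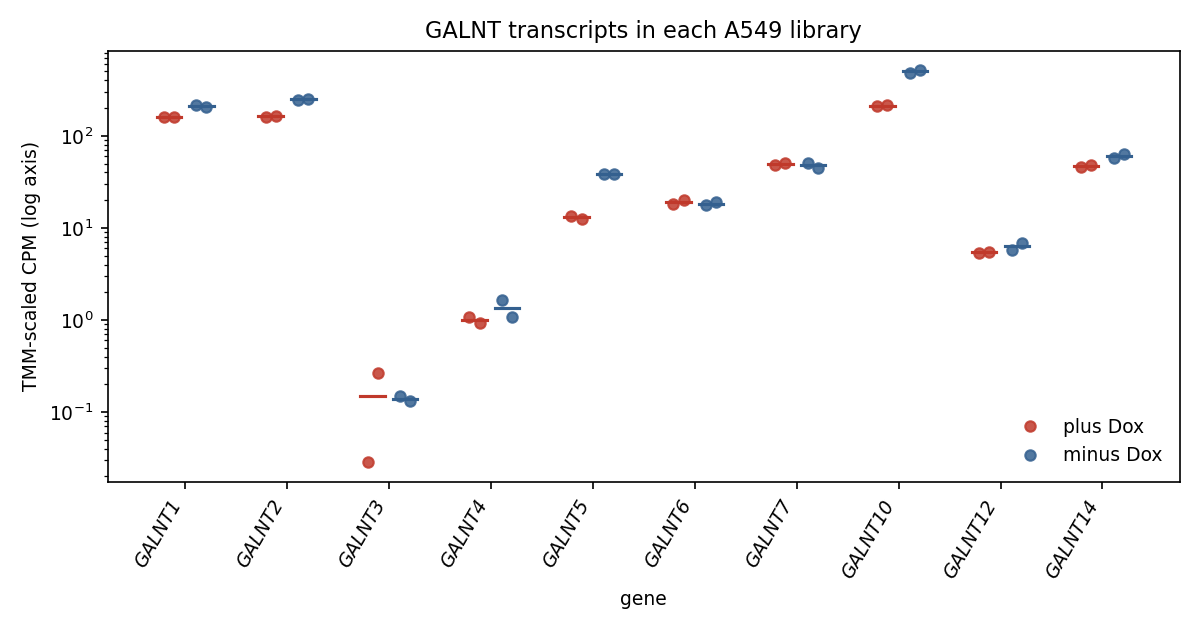
TMM-scaled CPM of the 10 GALNT genes on a log axis, with 1 point per library, a bar at the group mean, plus Dox in red and minus Dox in blue. GALNT10 lay at 210.0 and 216 CPM in plus Dox and at 486 and 514 CPM in minus Dox, and the values of GALNT3 are all below 0.3 CPM.

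GALNT10 had the highest level of the 10 members in minus Dox. It is one of the members that prefer peptides already carrying GalNAc. Its gene, ENSG00000164574, lies on chromosome 5 from 154190730 to 154420984 (hg38 coordinates, GENCODE 29, plus strand), and its promoter is shown with those of GALNT2 and GALNT7 because these 3 genes span a large fall, a moderate fall and no called change. The windows run from 250 bases before to 50 bases after the RefSeq start on GRCh38.p14, and capitals mark CpG dinucleotides.
GALNT10, chr5:154190483-154190782, plus strand: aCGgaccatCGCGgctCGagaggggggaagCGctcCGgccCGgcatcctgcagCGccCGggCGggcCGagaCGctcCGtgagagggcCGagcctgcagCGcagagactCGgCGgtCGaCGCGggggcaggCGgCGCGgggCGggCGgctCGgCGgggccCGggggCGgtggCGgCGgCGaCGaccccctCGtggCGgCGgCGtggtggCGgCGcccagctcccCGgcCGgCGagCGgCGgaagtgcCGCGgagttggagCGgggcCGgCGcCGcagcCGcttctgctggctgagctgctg
GALNT2, chr1:230066988-230067287, plus strand: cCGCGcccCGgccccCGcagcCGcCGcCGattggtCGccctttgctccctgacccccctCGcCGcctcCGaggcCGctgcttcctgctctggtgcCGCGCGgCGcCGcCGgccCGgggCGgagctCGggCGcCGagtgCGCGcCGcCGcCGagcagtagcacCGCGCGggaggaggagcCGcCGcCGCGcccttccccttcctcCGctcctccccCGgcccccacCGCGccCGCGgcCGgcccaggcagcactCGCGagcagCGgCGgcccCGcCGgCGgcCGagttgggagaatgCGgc
GALNT7, chr4:173168561-173168860, plus strand: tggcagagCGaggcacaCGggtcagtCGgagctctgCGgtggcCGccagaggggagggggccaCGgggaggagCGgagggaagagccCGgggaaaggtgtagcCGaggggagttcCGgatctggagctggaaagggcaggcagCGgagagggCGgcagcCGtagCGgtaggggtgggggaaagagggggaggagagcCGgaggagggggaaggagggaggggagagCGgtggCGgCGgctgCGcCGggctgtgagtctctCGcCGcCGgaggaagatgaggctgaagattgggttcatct
The GALNT10 and GALNT2 windows hold 51 CpG each and the GALNT7 window 23, where the median of 35116 RefSeq windows is 14. Windows were found for 7 of the 10 members (10 windows in all, none for GALNT4, GALNT5 or GALNT6). Both strands were searched for the AP-1 letters TGANTCA, the cyclic AMP response element TGACGTCA and the forkhead letters TGTTTAC (no match to 1 of them is also a match to another). None of the 10 windows held any of them, while 7.71%, 1.85% and 3.42% of all windows do. This says only that these letters are not in these windows.

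GALNT10 had 7393 and 7225 reads in plus Dox and 16419 and 19274 reads in minus Dox. Scaled, it averaged 213 ± 3.89 CPM in plus Dox and 499.9 ± 20.2 CPM in minus Dox (SD, n = 2 each). The groups lie far apart, and the log2 fold change was -1.23 (SE 0.04, adjusted p = 7.01e-25), which is 2.35-fold lower with doxycycline. MFAP3, a neighbour on the same strand that shares 1.15% of the exon bases of GALNT10, went the other way, with 35.2 and 35.7 CPM in plus Dox and 24.9 and 21.4 CPM in minus Dox (log2 fold change 0.62, adjusted p = 1.02e-08).

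GALNT7, which also prefers peptides that already carry GalNAc, did not pass the threshold. The gene (ENSG00000109586, chromosome 4, 173168753 to 173323967, plus strand) had 48.0 and 51.2 CPM in plus Dox and 51.2 and 45.0 CPM in minus Dox. The groups overlap, and the log2 fold change was 0.04 with a 95% interval of -0.09 to 0.18 (adjusted p = 0.575). The interval of GALNT10 ran from -1.31 to -1.15, and the intervals of GALNT7 and GALNT10 do not overlap. An antisense gene, AC105285.1, shares 1.43% of the exon bases of GALNT7 and fell (log2 fold change -0.69, adjusted p = 0.00529). A further antisense gene, AC097534.1, shares 5.74% and had 2 reads in each plus Dox library and 5 and 1 reads in the minus Dox libraries. The call for GALNT7 depended on the processing: it passed as higher at 0.26 with library size only (adjusted p = 5.35e-04) and as lower at -0.25 once trends with GC content, length and abundance were removed (adjusted p = 7.54e-05).

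GALNT1 and GALNT2, broadly expressed members that start glycosylation on bare peptides, fell moderately. GALNT2 (ENSG00000143641, chromosome 1, 230057990 to 230282124, plus strand), a gene linked in humans to blood lipids, had 162 and 163 CPM in plus Dox and 246 and 253 CPM in minus Dox. Its values hardly varied within a group, and the log2 fold change was -0.62 (SE 0.04, adjusted p = 1.07e-15). An antisense gene covers 13.3% of its exon bases and has 0 reads in every library. Reads of the shared bases may have been dropped from both genes, so this does not settle whether the overlap lowers the count of GALNT2. GALNT1 (ENSG00000141429, chromosome 18, 35581117 to 35711834, plus strand) had 160.1 and 159 CPM in plus Dox and 216 and 207 CPM in minus Dox, again with no overlap. Its log2 fold change was -0.41 (SE 0.04, adjusted p = 1.25e-10), a fall of 1.33-fold.

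GALNT14, a relative of GALNT2 known for glycosylating death receptors, also fell. The gene (ENSG00000158089, chromosome 2, 30910467 to 31155202, minus strand) had 45.5 and 48.0 CPM in plus Dox and 57.4 and 63.2 CPM in minus Dox. All plus Dox values are below all minus Dox values, and the log2 fold change was -0.37 (SE 0.06, adjusted p = 2.51e-06). The antisense gene AC009305.1 shares 0.92% of its exon bases and had 0 reads in every library.

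GALNT5 had the largest fold change of the 9 tested members. It encodes a transferase with a long stem region between its membrane anchor and catalytic domain, on chromosome 2 from 157257598 to 157314211 (ENSG00000136542, plus strand). Counts were 474 and 421 in plus Dox and 1295 and 1447 in minus Dox, or 13.0 ± 0.641 CPM in plus Dox and 38.5 ± 0.210 CPM in minus Dox (SD, n = 2 each). The log2 fold change was -1.56 (SE 0.08, adjusted p = 1.05e-18), a 2.95-fold lower level with doxycycline, and larger in size than that of 93.7% of all tested genes. No annotated gene shares exon bases with it. Over the 4 libraries the genes with the most similar log2 CPM profile were the keratin KRT83, EEPD1 and SYTL2, at Euclidean distances of 0.176, 0.213 and 0.273. KRT83, which has close paralogs that may share reads, averaged 12.1 CPM in plus Dox and 37.9 CPM in minus Dox.

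**Figure D2:**
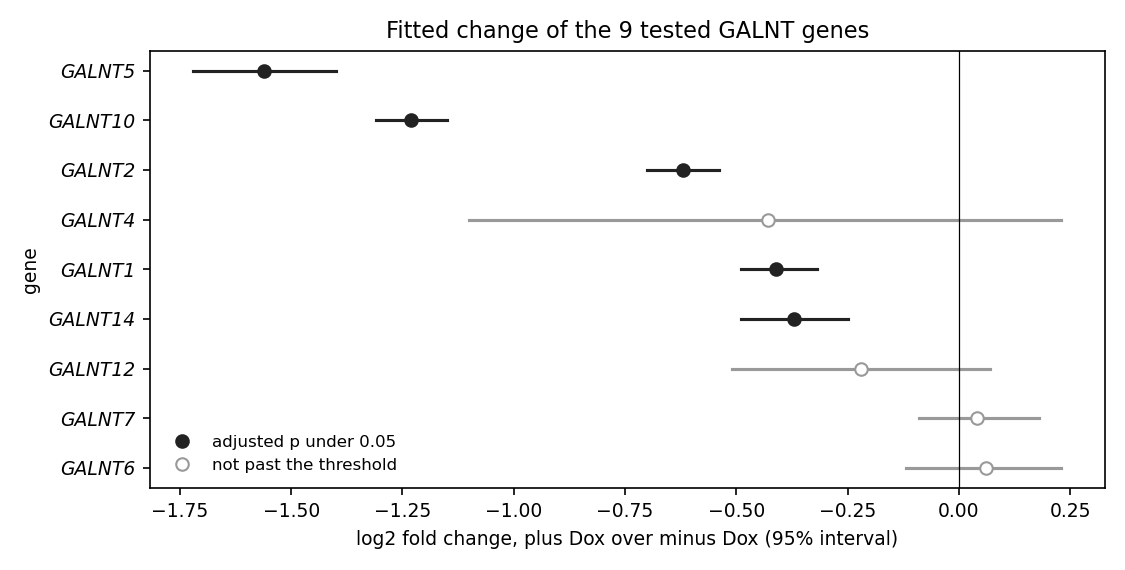
Fitted log2 fold change, plus Dox over minus Dox, of the 9 tested GALNT genes, ordered from the lowest, with 95% intervals. Filled points passed the adjusted p threshold, and GALNT5 at -1.56 and GALNT10 at -1.23 stand apart from GALNT2, GALNT1 and GALNT14 at -0.62, -0.41 and -0.37. After removal of the trends with GC content, length and abundance (not drawn), GALNT10 lay at -0.88, near GALNT1 at -0.78.

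Of the close relatives GALNT3 and GALNT6, only GALNT6 had reads well above the counting limit. GALNT3 (ENSG00000115339, chromosome 2, 165747591 to 165794682, minus strand) protects the phosphate hormone FGF23 from cleavage. It had 1 and 9 reads in plus Dox and 5 and 5 reads in minus Dox, near the limit of 3 counts that a count of 0 allows, and was not tested. GALNT6 (ENSG00000139629, chromosome 12, 51351247 to 51392867, minus strand), known for its expression in breast cancer, had 18.4 and 19.9 CPM in plus Dox and 17.7 and 19.0 CPM in minus Dox. These overlap, with a log2 fold change of 0.06 and a 95% interval of -0.12 to 0.23 (adjusted p = 0.580). With library size only GALNT6 passed as higher at 0.28 (adjusted p = 0.00588). SLC4A8 on the opposite strand shares 5.34% of its exon bases and rose by 0.65 on the log2 scale. The strand setting of the counting is not known, so reads of the shared bases cannot be assigned to either gene.

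GALNT4 and GALNT12, relatives that can use a lectin domain to reach sites near an existing GalNAc, were low. GALNT12 (ENSG00000119514, chromosome 9, 98807699 to 98850081, plus strand), a gene in which variants have been tied to colorectal cancer, had 5.40 and 5.52 CPM in plus Dox and 5.83 and 6.86 CPM in minus Dox. These do not overlap, but the difference did not pass (log2 fold change -0.22, 95% interval -0.51 to 0.07, adjusted p = 0.195). An antisense gene with 0 reads in both plus Dox libraries and 1 and 2 reads in the minus Dox libraries covers 21.1% of its exon bases. Here too, reads of the shared bases may have been dropped. GALNT4 (ENSG00000257594, chromosome 12, 89519408 to 89524806, minus strand) is a gene of 1 exon with 38 and 31 reads in plus Dox and 55 and 41 reads in minus Dox. Its log2 fold change was -0.43 with a wide 95% interval of -1.10 to 0.23 (adjusted p = 0.271). The read-through gene POC1B-GALNT4 covers 93.2% of its exon bases, so reads falling in both may have been dropped, and the level of GALNT4 is uncertain. POC1B-GALNT4 itself had 5 and 7 reads in plus Dox and 7 and 3 reads in minus Dox, while POC1B, which shares the locus, rose by 0.44 on the log2 scale (adjusted p = 1.59e-06). After trends with GC content, length and abundance were taken out, GALNT4 passed as lower at -0.87 (adjusted p = 0.0209).

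To compare levels between members, CPM was divided by the length of all merged exons in kilobases (RPKM). In plus Dox GALNT1 had the highest level at 31.1 RPKM, followed by GALNT2 (21.0 RPKM), GALNT10 (20.3 RPKM), GALNT14 (10.2 RPKM) and GALNT7 (7.22 RPKM). GALNT6 (2.61 RPKM), GALNT5 (1.91 RPKM), GALNT12 (1.74 RPKM), GALNT4 (0.186 RPKM) and GALNT3 (0.0317 RPKM) were lower in that group. In minus Dox GALNT10 had the highest level at 47.6 RPKM, followed by GALNT1 (41.2 RPKM), GALNT2 (32.3 RPKM), GALNT14 (13.2 RPKM) and GALNT7 (7.0 RPKM). GALNT5 (5.64 RPKM), GALNT6 (2.50 RPKM), GALNT12 (2.02 RPKM), GALNT4 (0.252 RPKM) and GALNT3 (0.0300 RPKM) were lower there. GALNT10 was behind GALNT1 and GALNT2 in plus Dox and ahead of both in minus Dox, and GALNT5 was below GALNT6 only in plus Dox. The ranges of neighbours did not overlap within either group, but GALNT2 and GALNT10 in plus Dox differed by a ratio of only 1.04, and GALNT5 and GALNT12 there by 1.10. Length matters for these ranks: by the longest transcript GALNT10 was still first in minus Dox (83.9 RPKM), while GALNT2 (56.1 RPKM) came before GALNT1 (54.9 RPKM). The order of the first 3 in plus Dox was the same by either length.

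The summed level of the 10 members was 95.6 and 97.0 RPKM in plus Dox and 150.4 and 153 RPKM in minus Dox, a ratio of 0.634. Leaving out GALNT4 gave the same ratio, but could hardly do otherwise. As counted, GALNT4 held on average 0.193% of the sum in plus Dox and 0.166% in minus Dox. GALNT10 accounted for 49.3% of the difference in summed RPKM, and GALNT1, GALNT2 and GALNT10 together for 87.9%. By CPM, without a length, the ratio was 0.591, with 61.8% for GALNT10 and 91.8% for the 3 genes. These 3 genes held 75.6% and 74.7% of the summed RPKM in plus Dox and 79.9% and 79.7% in minus Dox. The share of GALNT10 was 20.9% and 21.2% in plus Dox, against 30.8% and 32.0% in minus Dox. GALNT1 held 32.7% and 31.9% in plus Dox and 28.0% and 26.3% in minus Dox, although its own level fell. GALNT7, with little difference in level, held 7.31% and 7.68% in plus Dox and 4.96% and 4.28% in minus Dox. GALNT5 held 2.07% and 1.90% in plus Dox and 3.73% and 3.70% in minus Dox. Shares depend on the length used. By the longest transcript the mean share of GALNT10 was 23.8% in plus Dox and 34.9% in minus Dox. That of GALNT1 was then 27.6% in plus Dox and 22.8% in minus Dox.

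**Figure D3:**
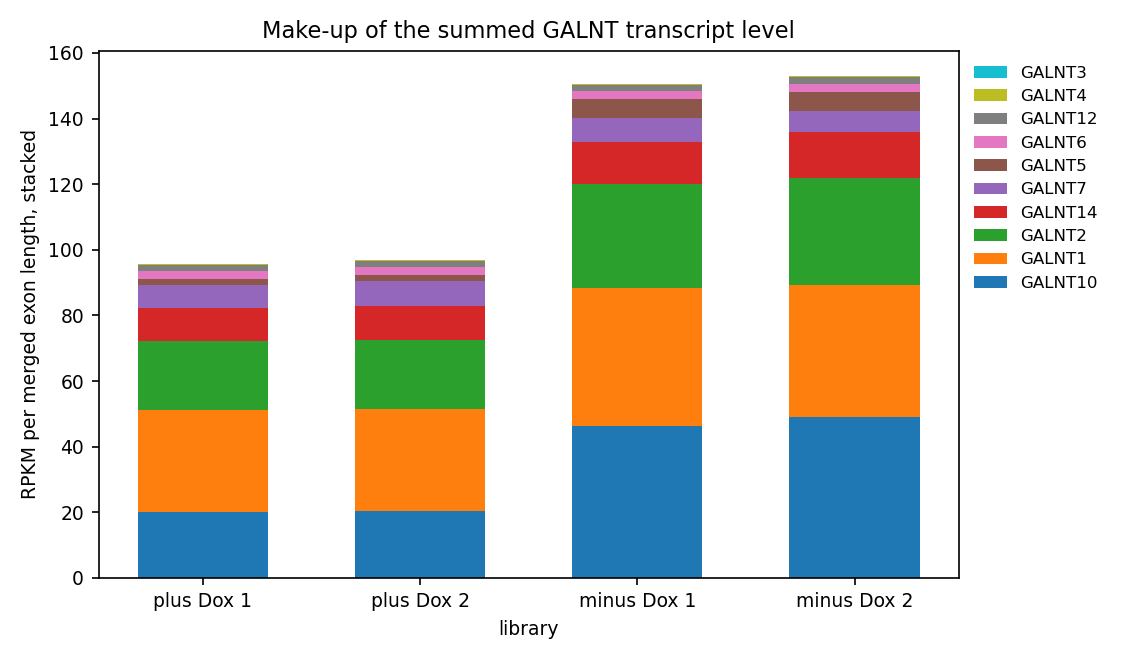
Stacked RPKM of the 10 GALNT genes in each library, plus Dox on the left and minus Dox on the right. The stacks reach 95.6 and 97.0 RPKM in plus Dox and 150.4 and 153 RPKM in minus Dox, and the GALNT10 segment at the base shows the largest difference.

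The scaling shifts the log2 fold changes of all genes together, but cancels in the shares and ranks within a library. The ratio of the summed levels was not computed with library size only. With library size only, the median of all tested genes moved to 0.22 on the log2 scale and 72.9% of called genes were higher, against 50.0% with TMM. Under that scaling the 5 called members were still lower, at -1.35 for GALNT5, -1.02 for GALNT10, -0.40 for GALNT2, -0.19 for GALNT1 and -0.15 for GALNT14 (adjusted p = 0.0289). GALNT12 lay at -0.00 there. After removal of the trends with GC content, length and abundance, the log2 fold change was -1.77 for GALNT5, -0.88 for GALNT10, -0.39 for GALNT2, -0.78 for GALNT1 and -0.30 for GALNT14.

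GALNT genes outside the 10 were called in both directions. Of 10 further family members 6 were tested, 2 fell, 1 rose and 3 did not pass. The share called was 50.0%, beside 56.9% of all tested genes (28.4% higher and 28.4% lower). GALNT9 and GALNT18, which belong to the same divergent branch of the family, both fell. GALNT9 had 1.76 and 1.61 CPM in plus Dox and 8.37 and 7.98 CPM in minus Dox (log2 fold change -2.27, adjusted p = 5.54e-14). GALNT18 had 9.09 and 11.5 CPM in plus Dox and 26.3 and 29.1 CPM in minus Dox (log2 fold change -1.43, adjusted p = 3.60e-15). GALNT11, known for glycosylating the linkers of LDL receptor proteins, rose by 0.24 on the log2 scale (51.1 and 50.1 CPM in plus Dox, 43.0 and 42.9 CPM in minus Dox). GALNT13, the closest relative of GALNT1, GALNT16, a relative of GALNT2, and GALNTL6 did not pass, at -0.07, -0.05 and -0.51, though GALNT13 passed as lower at -0.38 after trend removal (adjusted p = 0.00236).

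Enzymes that build on the first GalNAc moved both ways, as did all tested genes. Among 8 tested core and branching enzymes 3 rose and 4 fell. The share called was 87.5%, beside 56.9% of all tested genes. C1GALT1, which makes the core 1 disaccharide, averaged 41.8 ± 1.65 CPM in plus Dox and 31.9 ± 2.29 CPM in minus Dox (SD, n = 2 each), with a log2 fold change of 0.39, and its dedicated chaperone C1GALT1C1 rose by 0.31. The branching enzyme GCNT3 fell to 81.1 ± 1.05 CPM in plus Dox, against 148 ± 0.212 CPM in minus Dox (SD, n = 2 each), a log2 fold change of -0.87 (adjusted p = 3.23e-18). B4GALT4, a galactosyltransferase, and B3GNT3, which extends core 1, fell at -0.54 and -0.84. C1GALT1C1 was named after its value was seen. Scaling by library size alone gave 3 higher and 3 lower. After trend removal 1 of the 8 rose and 5 fell, and C1GALT1 turned to -0.20 (adjusted p = 0.00371).

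Of 9 O-glycan sialyltransferases 2 rose, 4 fell and 3 did not pass. The share called was 66.7%, beside 56.9% of all tested genes. ST6GALNAC4, ST6GALNAC6 and ST3GAL1 fell, at -0.66, -0.49 and -0.67 on the log2 scale, and ST3GAL2 rose by 0.43. ST3GAL1 and ST3GAL2 add sialic acid to the same core 1 galactose, yet moved apart. ST3GAL1 had 13.9 and 12.1 CPM in plus Dox and 19.8 and 21.4 CPM in minus Dox, and ST3GAL2 had 67.8 and 74.8 CPM in plus Dox and 51.5 and 54.6 CPM in minus Dox. ST6GALNAC6 shares 47% of its exon bases with another gene on the same strand, so its count is uncertain. Scaling by library size alone gave 4 higher and 4 lower. After trend removal 2 rose and 5 fell, and the list's median was -0.35, against -0.05 with TMM alone.

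Several genes of sialic acid and UDP-GlcNAc supply rose. Of 16 tested genes for sugar nucleotide supply and transport 9 rose, 3 fell and 4 did not pass, with a median of 0.26. The share called was 75.0%, beside 56.9% of all tested genes. With library size only 13 rose and 2 fell, a setting in which 72.9% of all called genes were higher. After trend removal 7 rose and 5 fell. GNE, the first enzyme of sialic acid synthesis, rose by 0.65, CMAS, which activates sialic acid, by 0.71, and SLC35A3, a Golgi transporter of UDP-GlcNAc, by 0.90 on the log2 scale. Of the 2 entry enzymes of the hexosamine pathway, GFPT2 fell at -0.71 (44.1 and 46.1 CPM in plus Dox, 72.8 and 75.2 CPM in minus Dox). The more abundant GFPT1 went the other way and rose by 0.43 (162 and 161 CPM in plus Dox, 123 and 116 CPM in minus Dox).

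Proteins that carry O-GalNAc glycans were mixed as well. Of 13 tested mucins and mucin-like acceptors 4 rose and 7 fell. The share called was 84.6%, beside 56.9% of all tested genes. Among those called were the sialomucins PODXL and CD164 at -1.97 and 0.94 on the log2 scale. The surface receptor CD44 lay at -2.04 and the proteoglycan SDC1 at -0.79. The secreted airway mucins MUC5AC and MUC5B, named after their values were seen, had log2 fold changes of -2.51 and -1.23. The membrane mucins MUC1 and MUC13, also not among the 4 of the list with the lowest adjusted p, lay at 0.48 and 0.80. The counts were 7 higher and 5 lower with library size only, where the list's median was 0.11, against -0.11 with TMM. After trend removal 6 rose and 7 fell.

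Other glycosylation routes served for comparison. Among 12 genes that start other kinds of protein glycosylation 6 rose and 3 fell (median 0.14), where STT3B and STT3A, the alternative catalytic subunits of N-glycan transfer, lay at 0.46 and -0.29, POGLUT1 at 0.67 and DPAGT1 at -0.61 (STT3A did not pass with library size only, at -0.07). Among 10 tested N-glycan trimming and branching enzymes 5 rose and 3 fell (median 0.23), with MGAT4A at 1.51, MGAT3 at 1.89, MAN1A2 at 0.93 and MGAT4B at -0.50. Of 18 Golgi structure and retrieval genes 8 rose and 5 fell (median 0.08), with COG6 at 0.71, KDELR3 at 0.60, GOLPH3 at 0.41 and TRIP11 at 0.31, the last of which lay at -0.06 after trend removal. With library size only, 9 of the 12 starters rose and 2 fell, 6 of the 10 N-glycan enzymes rose and 1 fell, and 13 of the 18 Golgi genes rose and 0 fell (median 0.30). The 5 Golgi genes that fell became 1 without plus Dox replicate 2, and 3 in DESeq2 and after trend removal. With TMM, 75.0% of the starters, 80.0% of the N-glycan enzymes and 72.2% of the Golgi genes were called, beside 56.9% of all tested genes. With library size only, 7865 of all 18046 tested genes rose and 2925 fell. The difference between the GALNT genes and these lists was not tested.

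**Figure D4:**
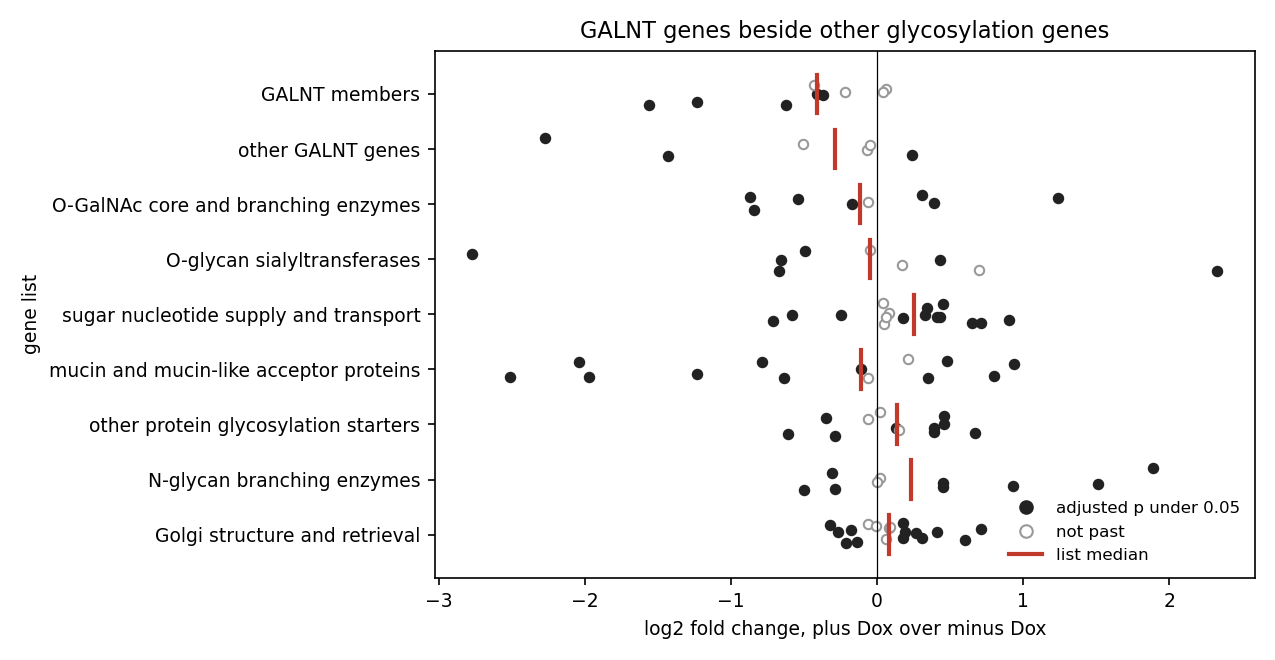
Log2 fold change, plus Dox over minus Dox, of every tested gene in the GALNT family and in 7 other glycosylation and Golgi lists, with a red line at each list's median and filled points for genes past the adjusted p threshold. The 10 listed GALNT genes have no filled point above 0 with TMM scaling (2 of them, GALNT6 and GALNT7, pass as higher with library size only). The other lists each have filled points on both sides with TMM, but with library size only the Golgi list has 0 genes past the threshold below 0.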

How the data were processed

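Per the labels' protocols, the libraries were paired-end and made from DNase-treated RNA by a strand-preserving kit. Each library has a deposited file of whole-number, unnormalized counts for Ensembl genes. The submitters' processing notes list, without roles, featureCounts 2.0.3, STAR 2.7.10b, cutadapt 4.0, DRAGEN and DESeq2, and hg38 as the build. No source used here names the annotation release or strand setting, so reads of overlapping genes may have been dropped or mixed.

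Counts were analysed in R 4.3.3 with edgeR 4.0.16: filterByExpr kept 18046 of 58051 genes, libraries were scaled by TMM (factors 1.077 and 1.079 in plus Dox, 0.930 and 0.926 in minus Dox), and plus Dox was tested against minus Dox by the quasi-likelihood test with Benjamini-Hochberg adjustment over all tested genes. The SE is the fold change over the root of its F statistic. Exon lengths, GC and positions come from GENCODE 29 and promoters from RefSeq. Intervals at 95% and the limit of 3 counts for a count of 0 (0.0800 to 0.0895 CPM) cover counting error, with between-library spread only in the fitted intervals. Alternatives were DESeq2 1.42.0, library size only, no filter, a replicate block, 1 library left out, and removal of smooth trends (mgcv 1.9.3). The code was tested on simulated data in which few genes changed and as many rose as fell, so that test cannot check the choice of scaling. The members, lists and tests were chosen with earlier results of these data known. Named genes are all members, every tested further GALNT gene, genes overlapping a member, and up to 4 per other list by lowest adjusted p. The 3 genes nearest to the most changed member in log2 CPM (prior count 2) are named too. FOS, C1GALT1C1, GFPT1, MUC1, MUC13, MUC5AC, MUC5B and some cell type markers were named outside this rule.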

Additional observations from a re-analysis of the deposited data

How the results depend on the processing

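Among the members, 5 were lower in every alternative run except removal of the trends with GC content, length and abundance, where GALNT4 and GALNT7 joined them and 7 were lower. Library size only gave 2 members higher (GALNT6 and GALNT7), and over all genes 7865 higher and 2925 lower, against 5133 and 5132 with TMM. GALNT7 turned to -0.25 with the trend removed. The cause was not tested. Leaving out any 1 of the 4 libraries left 5 members lower and 0 higher, while all genes higher ranged from 4246 to 4952 and all genes lower from 4318 to 5170.

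With the replicate number as a block, 5 members were lower and 0 higher, with 5219 genes higher and 5195 lower in all. Libraries with the same number did not deviate together (r = 0.002 over 18046 genes, which are not independent), so the numbers were not taken as a pairing. Depth limits GALNT3, which had between 1 and 9 reads per library, and GALNT4, whose interval spans zero widely.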
